A study of Mus musculus with 45 samples.

Results

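The genes described here are those of fibroblast growth factor (FGF) signalling, taken as every protein-coding gene whose symbol is that of an FGF ligand, an FGF receptor or the decoy receptor Fgfrl1, a Sprouty or Spred inhibitor, the phosphatase Dusp6, or the ETS transcription factors Etv1, Etv4 and Etv5. This rule gave 38 of the 34994 genes in the deposited count tables, and it used no measured value. Forelimbs of CD1 mouse embryos were removed on gestation day 13, pooled, and kept as organ cultures in bottles that held limbs of both sexes. Cultures received 50 µM bisphenol S (BPS), 10 µM BPS or the vehicle dimethyl sulfoxide (DMSO), and RNA was taken after 3, 24 or 48 h, so that 9 groups of 5 libraries gave 45 libraries in all. BPS is one of the compounds that replace bisphenol A in consumer products, and the series title names endochondral ossification, the formation of bone on a cartilage model, as the process studied. The design text gives CD1 for all embryos, while at 48 h of 50 µM BPS the 5 libraries carry CD2 to CD6 in the strain field, and they were analysed as CD1. Nothing in the labels states that the 5 libraries of a group are separate cultures or litters. The p-values therefore speak only of the spread among libraries, part of which may be technical.

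FGF ligands bind receptor tyrosine kinases with the help of heparan sulfate chains, and the receptors signal through the Ras and ERK kinases. The pathway limits itself: ERK signalling induces ETS factors of the Etv group, the phosphatase Dusp6, which acts on ERK, and the Sprouty and Spred proteins, which dampen the Ras to ERK step, so these genes are widely used as readouts of FGF activity. In the limb bud, Fgf10 is made in the mesenchyme and Fgf8 in the apical ectodermal ridge, and each maintains the other. In the later limb skeleton, Fgf18 acts as a ligand on the growth plate and Fgfr3 slows the division of chondrocytes.

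Sequence upstream of the receptor genes is shown here because of 3 receptors, Fgfr3, Fgfr4 and Fgfr2, and because of Fgfrl1. The 3 were the members with an adjusted p below 0.05 in edgeR between 50 µM BPS and DMSO at 48 h. Of the 28 members with a promoter entry, Fgfrl1 is the one with the ETS motif searched. Each line holds the 250 bases before an annotated transcription start from RefSeq, build GRCm38.p6, written 5′ to 3′ on the strand of the gene. Capitals mark matches, on either strand, to the ETS motif CCGGAAG and to GGGCGG, the core of SP1 sites.
Fgfr3, the first of 2 starts, chr5:33721474-33721723, plus strand: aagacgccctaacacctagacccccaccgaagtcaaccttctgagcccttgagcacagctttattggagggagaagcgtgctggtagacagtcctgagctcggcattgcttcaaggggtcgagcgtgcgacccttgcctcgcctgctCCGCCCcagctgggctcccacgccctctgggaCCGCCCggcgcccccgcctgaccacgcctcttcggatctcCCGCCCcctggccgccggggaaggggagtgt
Fgfr3, the other start, chr5:33722056-33722305, plus strand: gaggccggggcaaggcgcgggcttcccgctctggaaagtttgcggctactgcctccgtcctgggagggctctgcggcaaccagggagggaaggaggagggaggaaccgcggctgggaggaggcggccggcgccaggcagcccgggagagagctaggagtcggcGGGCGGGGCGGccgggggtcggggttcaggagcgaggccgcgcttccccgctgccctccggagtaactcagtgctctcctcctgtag
Fgfr4, chr13:55152568-55152817, plus strand: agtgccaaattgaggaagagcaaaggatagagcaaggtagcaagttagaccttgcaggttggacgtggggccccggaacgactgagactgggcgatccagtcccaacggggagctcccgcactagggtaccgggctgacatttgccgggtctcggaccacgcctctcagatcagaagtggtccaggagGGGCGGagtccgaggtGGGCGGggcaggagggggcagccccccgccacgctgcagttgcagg
Fgfr2, chr7:130266809-130267058, minus strand: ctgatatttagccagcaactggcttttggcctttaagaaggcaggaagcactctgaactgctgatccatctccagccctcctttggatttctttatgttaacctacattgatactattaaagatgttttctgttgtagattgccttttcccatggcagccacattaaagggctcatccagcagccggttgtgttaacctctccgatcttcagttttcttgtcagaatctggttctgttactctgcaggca
Fgfrl1, chr5:108693979-108694228, plus strand: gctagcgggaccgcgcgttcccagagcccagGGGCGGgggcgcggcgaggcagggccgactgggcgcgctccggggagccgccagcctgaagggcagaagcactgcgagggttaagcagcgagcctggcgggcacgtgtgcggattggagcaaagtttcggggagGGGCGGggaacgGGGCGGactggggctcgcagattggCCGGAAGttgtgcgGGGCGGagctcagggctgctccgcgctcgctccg

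The upstream sequences of the receptors were unlike in composition. The Fgfr2 window had 44.0% G and C, 2 CpG dinucleotides and 0 matches to GGGCGG, and the bases after its start are in none of the Fgfr2 transcripts of GENCODE vM21. The Fgfr3 windows had 66.8% and 72.8% G and C with 3 and 2 GGGCGG matches, and the Fgfr4 window 64.0% with 2. Fgfrl1 had 73.6% G and C, 4 GGGCGG matches and the ETS motif, which begins 48 bases before its start. Over all 32851 RefSeq promoters of this length, the median was 52.4% G and C, 6.91% held the ETS motif and 32.7% held GGGCGG. Of the 37 windows of the 28 members that matched, 1 held the ETS motif (2.7%) and 23 held GGGCGG (62.2%). The palindromic estrogen response element, GGTCA and TGACC with 3 bases between them, was in 0 of the 37 windows and in 21 of all promoters (0.0639%). A match or its lack describes these windows only. Members without an entry were Etv4, Fgf1, Fgf8, Fgf15, Fgf16, Fgf17, Fgf20, Fgfr1, Spry3 and Spry4.

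The libraries summed to between 15.2 and 23.1 M gene-assigned reads (median 18.2 M). Levels are given in CPM, the reads of a gene per 1 M reads of its library, with means ± SD over the n = 5 libraries of a group, and the floor of 3 reads corresponds to 0.13 to 0.197 CPM. The forelimb marker Tbx5 averaged 227 to 309 CPM over the 9 groups, against 3.63 to 6.23 CPM for the hindlimb gene Pitx1. Markers of the apical ectodermal ridge were low: at 3 h of DMSO culture Sp6 averaged 0.0195 CPM, below the floor, and Sp8 3.55 CPM, while the ectodermal keratin Krt14 stood at 138 ± 28.7 CPM.

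Compared per kilobase of the deposited gene length, and averaged over the 45 libraries, the receptors were among the most abundant members. Fgfrl1 (52.4 CPM per kb) and Fgfr1 (49.4) led, followed by the inhibitor Spry2 (35.2), Fgfr3 (30.8), the ligand Fgf18 (26.3), Spred1 (23.1), Etv5 (22.7), Fgfr2 (19.7), Spry1 (17.3), Fgfr4 (16.4) and Dusp6 (14.8). Fgf18 was the most abundant secreted ligand on this scale, ahead of Fgf2 (6.74), Fgf10 (5.33), Fgf9 (3.42) and Fgf7 (2.81 CPM per kb). Fgf8 averaged 0.553 CPM per kb, and the members at the low end were Fgf3, Fgf20 and Fgf15 at 0.0991, 0.0343 and 0.0285. The filter on low counts kept 30 members in all 9 comparisons with DMSO or between culture times, kept Fgf1, Fgf5, Fgf8, Fgf14 and Fgf23 in some, and left out Fgf3, Fgf15 and Fgf20. The untested members are not covered by the counts below.

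Most FGF genes rose over the first day of culture. Between 24 and 3 h of DMSO culture, 20 of the 33 members tested were higher at 24 h and 2 were lower at an adjusted p below 0.05 (edgeR quasi-likelihood test, Benjamini-Hochberg adjustment over all genes), and the 5 libraries of each time did not overlap for 18 of the 33, against 27.6% of all genes tested. Of all 16536 genes tested in this comparison, 40.2% passed, 20.0% higher and 20.1% lower. The median log2 fold change was 0.45 over the members and -0.0093 over all genes. These are bulk measurements, in which fewer cells of a type and less RNA per cell cannot be told apart.

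Fgfr1 to Fgfr4 encode receptor kinases. Fgfr3 (ENSMUSG00000054252, chr5:33721674-33737068, plus strand, mm10) had 118, 118.5, 137, 125 and 123 CPM at 3 h of DMSO culture, 236, 227, 238, 219 and 208 CPM at 24 h, and 243.1, 284.5, 213, 252 and 264 CPM at 48 h. Every library of 24 h and of 48 h lay above every library of 3 h, while 24 and 48 h overlapped. The log2 fold change of Fgfr3 was 0.84 ± 0.054 for 24 h over 3 h (SE, adjusted p = 9.64e-11) and 1.00 ± 0.075 for 48 h over 3 h (adjusted p = 1.15e-08).

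Fgfrl1, which binds ligand but carries no kinase, had 89.6, 90.1, 103, 98.5 and 96.6 CPM at 3 h, 170.1, 159.9, 172, 174 and 150.4 CPM at 24 h and 180.4, 198, 153.5, 178 and 167 CPM at 48 h. It separated in the same way, with a log2 fold change of 0.77 ± 0.055 for 24 h over 3 h (adjusted p = 4.99e-10). Fgfr1, the main receptor of the limb mesenchyme, was the most abundant receptor by CPM and averaged 368 ± 9.78, 520.4 ± 31.4 and 566 ± 29.5 CPM at 3, 24 and 48 h, a log2 fold change of 0.48 ± 0.049 for 24 h over 3 h (adjusted p = 8.49e-08). Fgfr4, a receptor made by embryonic muscle progenitors, averaged 47.6 ± 2.13, 64.4 ± 8.04 and 55.3 ± 3.74 CPM at these times, with a log2 fold change of 0.42 ± 0.072 for 24 h over 3 h (adjusted p = 8.56e-05).

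Fgfr2, whose isoforms serve epithelium and mesenchyme, was the receptor that did not pass. It averaged 204 ± 10.5, 189.8 ± 9.98 and 189 ± 11.3 CPM at 3, 24 and 48 h, with a log2 fold change of -0.12 ± 0.049 for 24 h over 3 h (adjusted p = 0.0520). The adjusted p of this value ran from 0.0245 to 0.141 when single libraries were left out, and it fell below the threshold without replicate 3 of 24 h or replicate 3 of 3 h, and in a fit of all 45 libraries (0.0397). In all, 4 of 5 receptor genes rose in DMSO culture between 3 and 24 h, as did 20.0% of all genes tested.

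**Figure D1:**
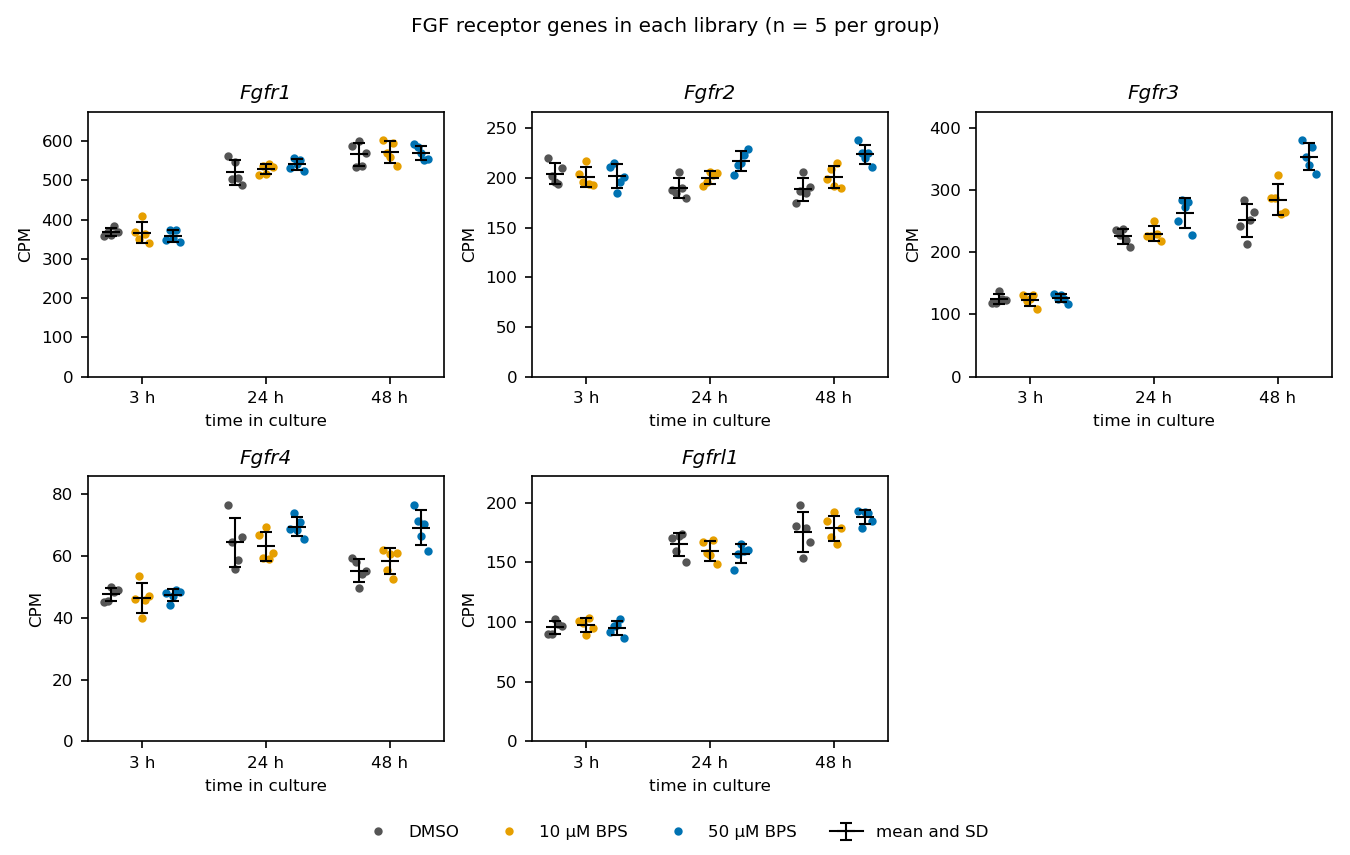
Levels of the 5 FGF receptor genes in CPM (vertical axes from 0) by time in culture, with 1 point per library, coloured by DMSO, 10 µM BPS and 50 µM BPS; bars are the mean and SD of 5 libraries. Fgfr1, Fgfr3 and Fgfrl1 stand higher at 24 and 48 h than at 3 h, and at 48 h the 50 µM points of Fgfr3 (326 to 381 CPM) lie above the DMSO points (213 to 285 CPM).

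Among the secreted ligands that bind these receptors, 7 of the 12 tested were higher at 24 h than at 3 h of DMSO culture and 1 was lower. Of all genes tested, 20.0% were higher and 20.1% lower. Fgf7, a mesenchymal ligand that acts on epithelium, had 3.79, 3.55, 4.62, 3.72 and 3.24 CPM at 3 h, 10.2, 11.8, 8.53, 9.06 and 10.4 CPM at 24 h and 12.8, 12.1, 14.3, 10.8 and 15.7 CPM at 48 h. All 24 h libraries were above all 3 h libraries (log2 fold change 1.38 ± 0.14, adjusted p = 5.57e-08). At 48 h over 24 h Fgf7 was higher again, by 0.39 ± 0.12 on the log2 scale (adjusted p = 0.0394), with some overlap of libraries. This second step was lost without any of replicates 1, 3, 4 or 5 of 24 h or 2, 3 or 5 of 48 h, with adjusted p from 0.0254 to 0.105 over the libraries left out.

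Fgf2, a broadly expressed ligand, had 33.9, 31.8, 29.9, 27.1 and 34.8 CPM at 3 h, 50.1, 49.6, 54.8, 45.6 and 54.8 CPM at 24 h and 44.1, 48.7, 59.8, 45.9 and 58.5 CPM at 48 h. It was higher at 24 h than at 3 h in every library (log2 fold change 0.68 ± 0.073, adjusted p = 1.86e-07). Fgf9, a ligand of the ridge and of muscle cells, averaged 11.2 ± 1.85, 17.8 ± 1.81 and 19.3 ± 2.37 CPM at 3, 24 and 48 h (log2 fold change 0.65 ± 0.11 for 24 h over 3 h, adjusted p = 7.19e-05). Fgf18, made in perichondrium and bone-forming cells, changed less, with means of 28.3 ± 2.13, 33.7 ± 2.21 and 33.1 ± 2.82 CPM (log2 fold change 0.23 ± 0.071, adjusted p = 0.0124). The remaining ligands that rose were Fgf6, known from muscle (log2 fold change 1.01 ± 0.19), Fgf16 (1.36 ± 0.27) and Fgf4 (1.11 ± 0.32). They were low, with means of 4.29 ± 0.680, 2.00 ± 0.475 and 1.92 ± 0.423 CPM at 24 h.

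Fgf8 and Fgf10, the ridge and mesenchymal ligands that maintain each other in the limb bud, did not rise. Fgf8, the ridge ligand, was low, with 0.689, 1.13, 2.12, 1.24 and 1.41 CPM at 3 h, 0.797, 0.696, 0.587, 0.674 and 0.766 CPM at 24 h and 0.284, 0.237, 0.660, 0.486 and 0.321 CPM at 48 h. The libraries of 3 and 48 h did not overlap. Its log2 fold change was -0.92 ± 0.31 for 24 h over 3 h (adjusted p = 0.0225) and -1.73 ± 0.37 for 48 h over 3 h (adjusted p = 0.000948). The call for 24 h over 3 h was lost without replicate 3 of 3 h or replicate 3 of 24 h, with adjusted p up to 0.104.

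Fgf10, the mesenchymal partner of Fgf8, had 28.6, 23.3, 24.1, 25.1 and 28.7 CPM at 3 h, 26.7, 28.4, 27.2, 25.8 and 30.1 CPM at 24 h and 17.9, 19.8, 21.3, 19.3 and 20.9 CPM at 48 h. The 3 and 24 h libraries overlapped and Fgf10 did not pass between them (log2 fold change 0.075 ± 0.077, adjusted p = 0.464). All 48 h libraries lay below all libraries of 24 and 3 h, with log2 fold changes of -0.48 ± 0.079 for 48 h over 24 h (adjusted p = 0.000510) and -0.39 ± 0.085 for 48 h over 3 h (adjusted p = 0.00103). Ectodermal markers fell in the first of these intervals: 6 of 8 tested were lower at 24 h than at 3 h and 0 were higher, among them Sp8 (log2 fold change -1.82 ± 0.24), with summed levels of 151.5 to 345 CPM at 24 h and 266 to 491 CPM at 3 h. Between 48 and 24 h, 0 of the 8 passed, 7 had a log2 fold change above 0, and their sum was 275 to 455 CPM at 48 h. The forelimb mesenchyme markers were lower at 48 h than at 24 h in 4 of 5 cases (median log2 fold change -0.44), with sums of 1015 to 1224 CPM at 48 h and 1325 to 1515 CPM at 24 h. The part of these cells in the levels of Fgf8 and Fgf10 was not tested.

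Fgf17, Fgf22 and Fgf1 did not pass at 24 h over 3 h, with log2 fold changes of 0.65 ± 0.28, 0.83 ± 0.36 and 0.055 ± 0.46, and Fgf5 entered only later comparisons (log2 fold change 1.39 ± 0.37 for 48 h over 3 h, adjusted p = 0.00538). Fgf5 was low, with a mean of 0.545 CPM over the 45 libraries. Of the hormone-like ligands, which act through Klotho coreceptors, Fgf21 was tested and did not pass (-0.09 ± 0.33), while Fgf15 and Fgf23 stayed at or below 0.518 CPM on average in every group.

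**Figure D2:**
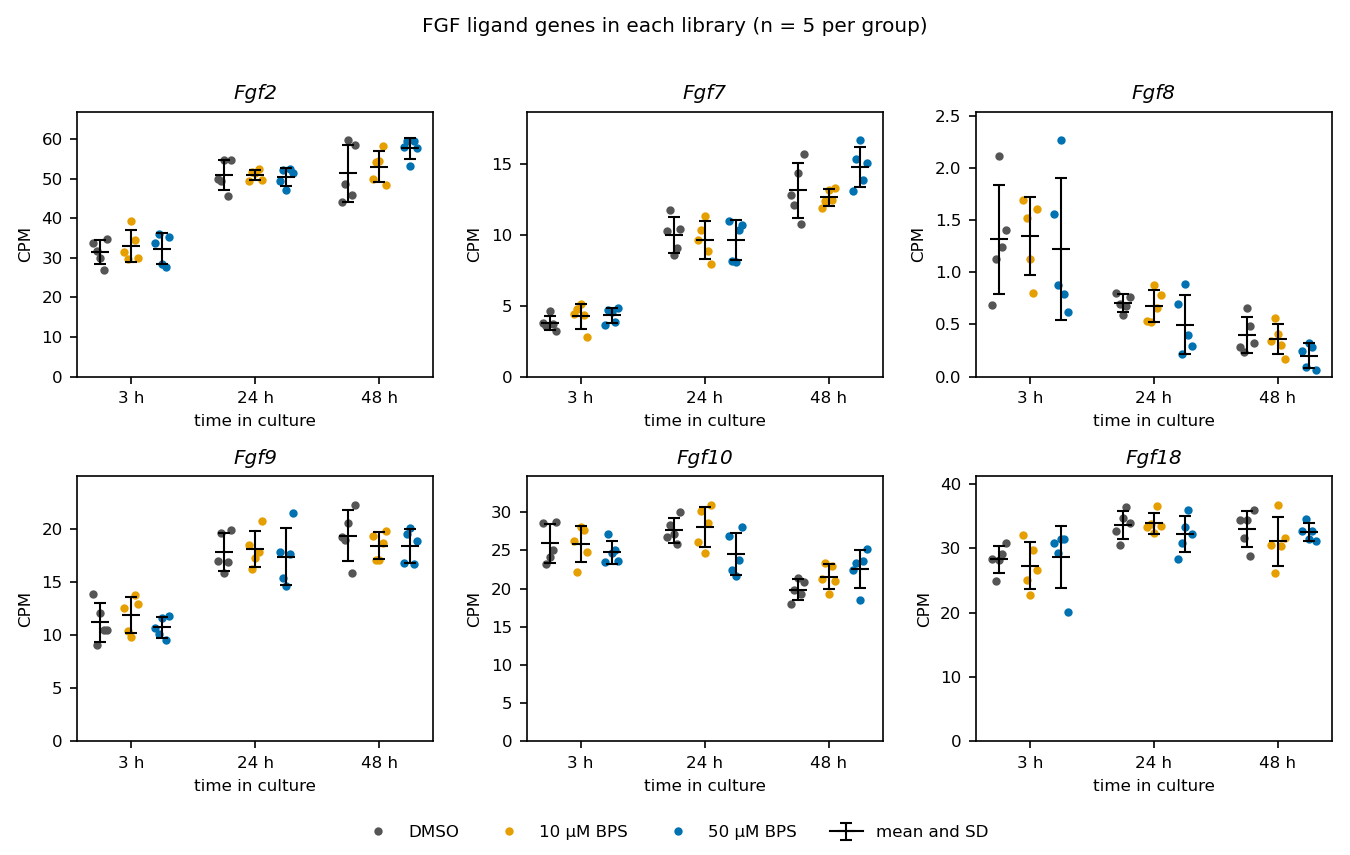
Levels of 6 FGF ligand genes in CPM (vertical axes from 0) by time in culture, with 1 point per library and the mean and SD of 5 libraries. Fgf2, Fgf7 and Fgf9 are higher at 24 and 48 h than at 3 h, Fgf8 is lower at 48 h (0.0592 to 0.660 CPM over DMSO and 50 µM BPS), and the doses of one time overlap in each of the 6 genes.

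The intracellular homologous factors share the FGF fold, do not act through FGF receptors as secreted ligands do, and are known as partners of voltage-gated sodium channels. Fgf11 had 14.6, 18.9, 20.6, 16.6 and 19.6 CPM at 3 h and 52.6, 40.8, 28.9, 30.2 and 36.0 CPM at 24 h of DMSO culture. All 24 h libraries were above the 3 h libraries but varied widely among themselves (log2 fold change 1.04 ± 0.16, adjusted p = 0.000324). Fgf12 averaged 12.2 ± 1.11, 19.7 ± 1.44 and 16.4 ± 1.25 CPM at 3, 24 and 48 h, which was 0.68 ± 0.091 higher on the log2 scale for 24 h over 3 h (adjusted p = 3.41e-06). Between 24 and 48 h Fgf12 was lower, with a log2 fold change of -0.27 ± 0.087 (adjusted p = 0.0418), a call that held in 1 of 10 fits that left out a library, the one without replicate 5 of 48 h (adjusted p from 0.0295 to 0.105), and was lost with no filter on low counts. Fgf13 and Fgf14 passed at 48 h over 3 h, with log2 fold changes of 0.38 ± 0.096 and 1.45 ± 0.30. Fgf14 was low, with a mean of 0.774 CPM over the 45 libraries.

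Of the 8 feedback inhibitors, 5 were higher at 24 h than at 3 h and 3 did not pass, while 20.0% of all genes tested were higher. Those that rose were Spred3, Spred1, Spry4, Spry1 and Spry2. Spred1, which blocks Raf activation at the membrane, averaged 128 ± 9.84, 162 ± 6.35 and 167 ± 9.63 CPM at 3, 24 and 48 h (log2 fold change 0.32 ± 0.054 for 24 h over 3 h, adjusted p = 7.77e-05). Spry4 averaged 26.8 ± 2.48, 33.8 ± 1.83 and 37.5 ± 4.49 CPM (log2 fold change 0.32 ± 0.074, adjusted p = 0.00168).

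Spry1 and Spry2, inhibitors induced by receptor tyrosine kinases, passed narrowly and their 3 and 24 h libraries overlapped. Spry1 averaged 44.9 ± 1.84, 51.6 ± 5.27 and 59.3 ± 2.83 CPM, and its log2 fold change was 0.18 ± 0.067 for 24 h over 3 h (adjusted p = 0.0331) and 0.39 ± 0.06 for 48 h over 3 h (adjusted p = 4.35e-05). Spry2 averaged 70.9 ± 7.79, 81.0 ± 4.09 and 75.6 ± 4.35 CPM, with 0.17 ± 0.065 for 24 h over 3 h (adjusted p = 0.0364) and 0.083 ± 0.075 for 48 h over 3 h (adjusted p = 0.378). At 24 h over 3 h, leaving out single libraries gave an adjusted p of 0.0137 to 0.117 for Spry1, which was lost without replicate 1 or 4 of 24 h or 1 or 2 of 3 h, and of 0.00476 to 0.109 for Spry2, which was lost without replicate 2, 3 or 4 of 24 h or 2, 4 or 5 of 3 h.

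Dusp6, the ERK phosphatase, had 55.8, 46.2, 49.0, 45.4 and 50.9 CPM at 3 h, 49.8, 45.7, 50.9, 43.3 and 42.5 CPM at 24 h and 43.5, 48.5, 47.9, 48.4 and 42.6 CPM at 48 h of DMSO culture. The times overlapped, and Dusp6 did not pass at 24 h over 3 h (log2 fold change -0.11 ± 0.068, adjusted p = 0.216, 95% interval -0.25 to 0.033). Spred2 and Spry3 did not pass either, with 0.094 ± 0.055 and -0.19 ± 0.18, while Spry3 was lower at 48 h than at 3 h (-0.53 ± 0.19, adjusted p = 0.0302), in 4 of 10 fits that left out a library.

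The ETS factors split. Etv5 had 67.1, 63.2, 68.8, 61.2 and 59.1 CPM at 3 h, 111, 123, 112.5, 109 and 105 CPM at 24 h and 108.5, 114, 109.7, 118 and 128 CPM at 48 h, and all later libraries were above those of 3 h (log2 fold change 0.79 ± 0.057 for 24 h over 3 h, adjusted p = 5.67e-10). Etv1 rose as well, by 0.65 ± 0.086 on the log2 scale (30.0 ± 3.26 CPM at 24 h, against 18.8 ± 1.64 CPM at 3 h, adjusted p = 3.06e-06). Etv4, a target that lies downstream of the same receptors in the limb, had 19.1, 17.9, 21.3, 21.2 and 20.1 CPM at 3 h, 13.1, 14.2, 16.0, 13.1 and 8.53 CPM at 24 h and 18.5, 20.2, 12.8, 17.9 and 11.7 CPM at 48 h. Its 24 h libraries lay below all 3 h libraries (log2 fold change -0.64 ± 0.12, adjusted p = 0.000320), and the 48 h libraries overlapped both earlier times.

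**Figure D3:**
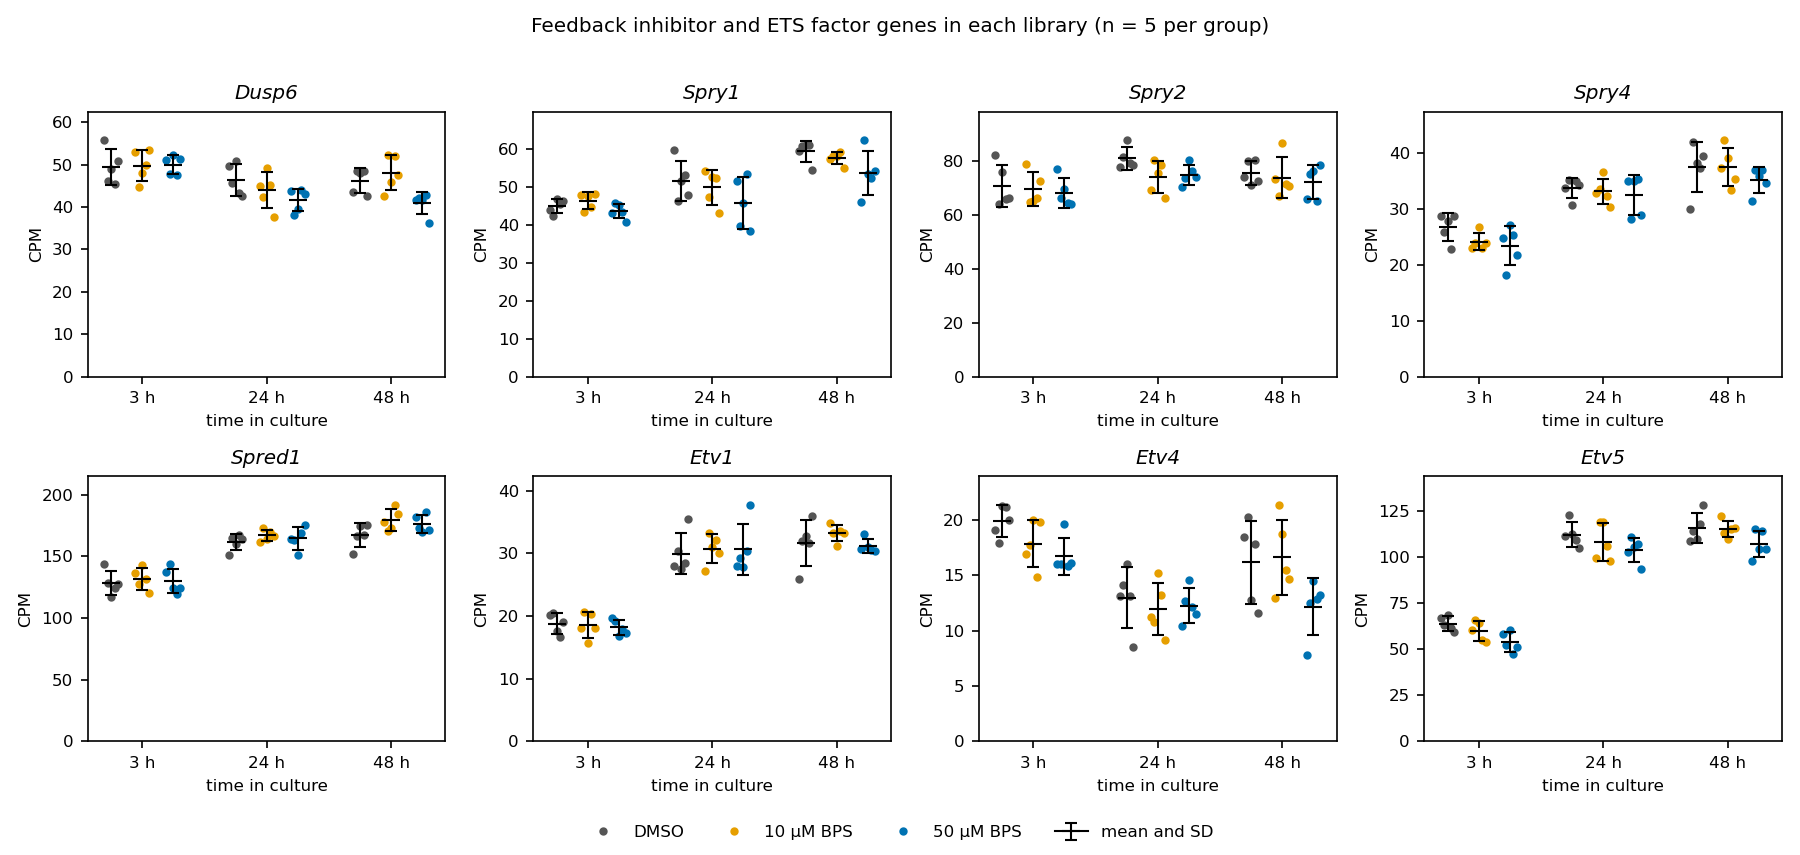
Levels of 5 feedback inhibitor genes and 3 ETS factor genes in CPM (vertical axes from 0) by time in culture, with 1 point per library and the mean and SD of 5 libraries. Etv5 is higher at 24 and 48 h than at 3 h, Dusp6 overlaps across the times of DMSO culture, and the doses of each time overlap in all 8 genes.

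Over the rest of the pathway, genes that carry the signal from receptor to ERK passed in 8 of 20 cases between 24 and 3 h of DMSO culture: 7 were higher and 1 was lower, a share close to the 40.2% of all genes. The smallest adjusted p were those of the adaptor Shc1 (log2 fold change 0.52 ± 0.049) and the kinases Map2k1 (0.38 ± 0.059) and Araf (0.32 ± 0.052). Of 15 coreceptor and heparan sulfate carrier genes tested, 5 were higher and 3 lower, led by the proteoglycans Hspg2 (0.48 ± 0.052) and Sdc3 (0.46 ± 0.054) and by Flrt2 (0.47 ± 0.069). Of 16 other feedback and ERK response genes, 2 were higher and 6 lower, and the smallest adjusted p were those of the phosphatase Dusp9 (-1.01 ± 0.12), the receptor inhibitor Errfi1 (-0.49 ± 0.067) and the cyclin Ccnd1 (0.24 ± 0.057). Marker levels of the tissues that use these receptors moved in the same interval. Cartilage markers were higher at 24 h in 4 of 5 cases, with summed levels of 8538 to 9267 CPM at 24 h and 3496 to 3967 CPM at 3 h, and muscle progenitor markers in 4 of 6, with sums of 283 to 363 CPM at 24 h and 244.8 to 264 CPM at 3 h. Perichondrium and osteoblast markers were higher in 5 of 5 cases. Their sums were 2551 to 3133 CPM at 24 h and 1571 to 1779 CPM at 3 h. Of the skeletal muscle markers, 4 of 4 tested were higher. Endothelial markers were lower in 5 of 5 cases. Their sums were 199.8 to 234 CPM at 24 h and 281 to 304 CPM at 3 h. The part of these cells in the receptor levels was not tested.

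Fewer FGF genes passed over the second day. Between 48 and 24 h of DMSO culture, 4 of 34 members passed, the ligands Fgf6 (log2 fold change 0.58 ± 0.16, adjusted p = 0.0200) and Fgf7 higher, and Fgf10 and Fgf12 lower, against 16.0% of all 16694 genes tested (9.44% higher and 6.55% lower), so that the share of members was not above that of all genes. Fgf6 passed in 5 of 10 fits that left out a library, and was lost without replicate 1 or 5 of 24 h or 2, 4 or 5 of 48 h (adjusted p up to 0.0535). None of the receptors, feedback inhibitors or ETS factors passed in this comparison. A fit of all 45 libraries, however, called 8 members, adding Fgfr1 and Spry1 as higher and Fgfr4 and Spred3 as lower. Fgfr4, Spred3 and Spry1 also passed with the replicate number as a block. Between 48 and 3 h, 21 of 34 members were higher and 3 lower (Fgf8, Fgf10 and Spry3, the last lost in 6 of 10 fits that left out a library), against 49.3% of all genes (24.5% higher and 24.8% lower). Among the rises, Fgf18 held in 5 of 10 fits that left out a library and was lost with the replicate block. Fgfr4 was lost with the block only. Fgf7 and Fgf6 had the widest rises of the 8 members with the smallest adjusted p, with log2 fold changes of 1.78 ± 0.13 and 1.61 ± 0.18, and the others were Fgfr3, Etv5 (0.85 ± 0.066), Fgfrl1 (0.87 ± 0.071), Fgfr1 (0.61 ± 0.057), Fgf11 (1.16 ± 0.13) and Etv1 (0.74 ± 0.093).

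**Figure D4:**
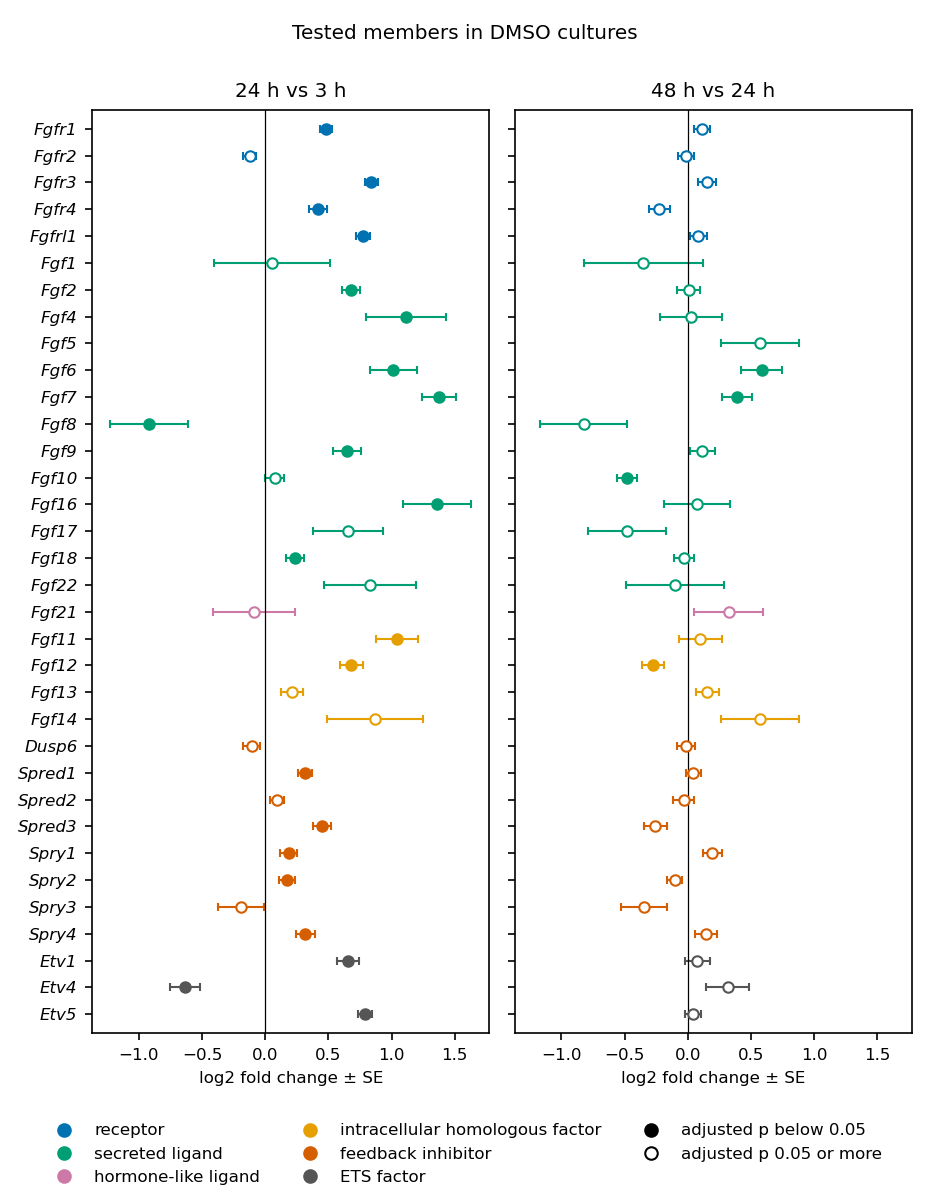
Log2 fold changes with their SE for the tested members in DMSO culture, 24 h over 3 h on the left and 48 h over 24 h on the right, grouped by role; filled points have an adjusted p below 0.05. Most points of the left panel lie right of 0, with 20 higher and 2 lower, and the right panel has 4 filled points.

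After 48 h of 50 µM BPS the FGF members that passed in edgeR were receptor genes. Fgfr3, Fgfr4 and Fgfr2 were higher in 50 µM BPS than in DMSO, 3 of 33 members tested, with 0 lower. Of all 16663 genes tested, 1.00% passed, 0.480% higher and 0.522% lower. The libraries of the 2 groups did not overlap for these 3 genes and Fgf12, 4 of 33 members, against 3.56% of all genes tested. The median log2 fold change was 0.0053 over the members and -0.0041 over all genes.

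Fgfr3 had 381, 353, 340.3, 370.0 and 326 CPM in 50 µM BPS, against 243.1, 284.5, 213, 252 and 264 CPM in DMSO at 48 h. The lowest 50 µM library was above the highest DMSO library. The log2 fold change was 0.49 ± 0.073 (adjusted p = 0.00352), a fold of 1.40. The DMSO library with the lowest Fgfr3, replicate 3, also had the lowest cartilage markers of its group, 459.0 CPM for Matn1 and 7394 CPM for Col2a1. Without that library the log2 fold change of Fgfr3 was 0.43 ± 0.063, and the call held in all 10 fits that left out a library (adjusted p from 0.00267 to 0.0184).

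Fgfr4 (ENSMUSG00000005320, chr13:55152640-55168759, plus strand) had 76.5, 71.3, 66.3, 70.4 and 61.6 CPM in 50 µM BPS, against 59.3, 58.2, 49.8, 54.3 and 55.04 CPM in DMSO. All 50 µM libraries were higher, with a log2 fold change of 0.32 ± 0.068 (adjusted p = 0.0399). Fgfr2 (ENSMUSG00000030849, chr7:130162451-133123350, minus strand) had 238, 225, 219.7, 225 and 211 CPM in 50 µM BPS, against 175, 186, 206, 185 and 190.4 CPM in DMSO. Here too every 50 µM library lay above the DMSO libraries, with a log2 fold change of 0.24 ± 0.054 (adjusted p = 0.0467). Both calls rested near the threshold: each held in 2 of 10 fits that left out a library, Fgfr4 without 50 µM replicate 5 or DMSO replicate 1 (adjusted p from 0.00778 to 0.125 over the 10) and Fgfr2 without DMSO replicate 1 or 3 (0.0193 to 0.155). The log2 fold changes in these fits ran from 0.28 to 0.36 for Fgfr4 and from 0.22 to 0.27 for Fgfr2. In the authors' deposited table the adjusted p at 48 h were 0.0021 for Fgfr4 and 0.0018 for Fgfr2.

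Fgfr1 and Fgfrl1 did not pass at 50 µM and 48 h. Fgfr1 averaged 569.7 ± 17.8 CPM in 50 µM BPS and 566 ± 29.5 CPM in DMSO (log2 fold change 0.0053 ± 0.055, 95% interval -0.11 to 0.12, adjusted p = 0.981). Fgfrl1 averaged 188 ± 6.15 CPM in 50 µM BPS and 176 ± 16.6 CPM in DMSO (0.094 ± 0.065, 95% interval -0.044 to 0.23, adjusted p = 0.587). The differences between receptors were not tested.

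Exons of Fgfr3 overlap 998 bases of the opposite-strand gene G630022F23Rik, and exons of Fgfr2 share 314 bases with Ctbp2 on the same strand, in GENCODE vM21. No source used here says that the libraries kept strand, and reads from such stretches cannot be given to 1 gene with certainty. G630022F23Rik averaged 2.63 ± 0.483 CPM in 50 µM BPS and 2.25 ± 0.729 CPM in DMSO at 48 h, and Ctbp2 45.8 ± 1.04 and 50.0 ± 3.90 CPM. Neither passed (log2 fold change 0.23 ± 0.23, adjusted p = 0.720, and -0.13 ± 0.063, adjusted p = 0.397).

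The feedback inhibitors and ETS factors, used as readouts of FGF activity, did not pass at 50 µM and 48 h. Only 1.00% of all genes passed there, so that 0 among so few genes says little. An unadjusted p below 0.05 in edgeR was seen for 1 of 8 inhibitors, 1 of 3 ETS factors and 2157 of all 16663 genes. Dusp6 had 41.7, 42.2, 41.6, 42.8 and 36.2 CPM in 50 µM BPS, against 43.5, 48.5, 47.9, 48.4 and 42.6 CPM in DMSO. The groups overlapped by a small margin, and the log2 fold change of -0.18 ± 0.067 had an adjusted p of 0.261. Etv4 averaged 12.2 ± 2.57 CPM in 50 µM BPS and 16.2 ± 3.76 CPM in DMSO (-0.42 ± 0.17, adjusted p = 0.319), and Etv5 107 ± 7.26 and 116 ± 7.92 CPM (-0.12 ± 0.063, adjusted p = 0.460).

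Spry1 averaged 53.6 ± 5.79 CPM in 50 µM BPS and 59.3 ± 2.83 CPM in DMSO (-0.15 ± 0.073, adjusted p = 0.414). For Spry2, Spry4, Spred1 and Etv1 the log2 fold changes were -0.071, -0.10, 0.073 and -0.029, with adjusted p of at least 0.618. Over the 8 inhibitors the median was -0.083. None of the 20 relay genes, 15 coreceptor genes or 16 other ERK response genes passed, against 1.00% of all genes. Unadjusted p below 0.05 in edgeR were seen for 2, 2 and 3 of them. Of the other ERK response genes, 8 of 16 had a log2 fold change above 0, with a median of -0.011. The smallest adjusted p among them were those of the immediate early genes Egr1 and Fos, at -0.39 ± 0.11 and -0.37 ± 0.13 (adjusted p = 0.102 and 0.208).

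None of the 12 secreted ligands tested passed in this comparison (adjusted p of at least 0.305), in which 1.00% of all genes passed. Fgf10 averaged 22.6 ± 2.496 CPM in 50 µM BPS and 19.9 ± 1.35 CPM in DMSO (log2 fold change 0.18 ± 0.089), Fgf2 57.7 ± 2.58 and 51.4 ± 7.26 CPM (0.16 ± 0.082), and Fgf7 14.8 ± 1.39 and 13.1 ± 1.91 CPM (0.17 ± 0.11). Fgf9 and Fgf18 were within 0.1 log2 units of DMSO, and Fgf8, at 0.202 ± 0.117 CPM in 50 µM BPS and 0.398 ± 0.174 CPM in DMSO, was too low to be tested. The homologous factor Fgf12 had 13.9, 13.6, 12.0, 13.7 and 13.4 CPM in 50 µM BPS, against 14.9, 15.7, 16.1, 16.8 and 18.2 CPM in DMSO. All its 50 µM libraries were lower, but the log2 fold change of -0.30 ± 0.086 did not pass in edgeR (adjusted p = 0.122). In the authors' deposited table the adjusted p of Fgf12 was 0.0495.

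Markers of other cells also changed at 50 µM and 48 h. Macrophage markers were lower in 2 of 5 cases, Csf1r (log2 fold change -0.67 ± 0.10) and C1qa (-0.58 ± 0.13), with summed levels of 73.4 to 115.5 CPM in 50 µM BPS and 109 to 151 CPM in DMSO. The endothelial marker Cdh5 was lower (-0.33 ± 0.07), 1 of 5, with sums of 176 to 218 and 203 to 274.5 CPM. Of the tissues known for Fgfr3, Fgfr4 and Fgfr2, cartilage (0 of 5, sums of 12880 to 14660 and 10040 to 15900 CPM), muscle progenitors (0 of 6, 344 to 399 and 296 to 365 CPM) and ectoderm (0 of 8, 257 to 409 and 275 to 455 CPM) had no marker that passed. The median log2 fold change was 0.091 over the cartilage markers (5 of 5 above 0). It was 0.0034 over the muscle progenitor markers (3 of 6 above 0) and 0.090 over the ectodermal markers (5 of 8 above 0). Of the perichondrium and osteoblast markers 0 of 5 passed, with a median of 0.078 (4 of 5 above 0). Their sums were 6206 to 7424 CPM in 50 µM BPS and 6777 to 8578 CPM in DMSO. The part of these cells in the receptor levels was not tested.

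Fgfr3 was also higher at 50 than at 10 µM BPS. At 48 h Fgfr3 averaged 251 ± 26.5, 285 ± 25.3 and 354 ± 21.9 CPM at 0, 10 and 50 µM, and the 10 µM libraries had 287, 288, 324, 261 and 264 CPM. All 50 µM libraries were above all 10 µM libraries, and the log2 fold change of 50 over 10 µM was 0.31 ± 0.063 (adjusted p = 0.00521). Fgfr3 was the one member of 35 that passed this comparison, against 0.738% of all 18432 genes tested (0.326% higher and 0.412% lower). The call was lost when replicate 1 or replicate 4 was left out of all groups (adjusted p up to 0.196). Next by p were Dusp6 (-0.24 ± 0.067, adjusted p = 0.0779) and Fgfr4 (0.24 ± 0.068, adjusted p = 0.0880), which did not pass, as Fgfr2 did not (0.15 ± 0.048, adjusted p = 0.191). Csf1r and Cdh5 were lower at 50 than at 10 µM as well (-0.67 ± 0.11 and -0.33 ± 0.073), and summed cartilage levels were 12880 to 14660 CPM at 50 µM and 13110 to 14780 CPM at 10 µM, whose part in the levels of Fgfr3 was not tested. At 3 and 24 h, 0 members passed between 50 and 10 µM. The shares of all genes were 0.00543% at 3 h (1 gene, lower) and 0.0543% at 24 h (0.0380% higher and 0.0163% lower). Unadjusted p was below 0.05 for 2 and 5 members, and for 804 and 1129 of all genes. DESeq2 called 0 members at both times.

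The receptor response to 50 µM BPS differed between times for Fgfr3. At 3 h Fgfr3 averaged 126 ± 6.24 CPM in 50 µM BPS and 124 ± 7.70 CPM in DMSO, at 24 h 263 ± 23.6 and 226 ± 12.4 CPM, and at 48 h 354 ± 21.9 and 251 ± 26.5 CPM. The interaction, the 50 µM response at 48 h minus that at 3 h, was 0.47 ± 0.09 on the log2 scale (adjusted p = 0.0154). It was the one member of 35 that passed, against 0.0922% of all genes tested (0.0597% higher and 0.0326% lower), and it was lost when replicate 1, 3 or 4 was left out of all groups (adjusted p up to 0.239). The same interaction was 0.26 ± 0.068 for Fgfr2 and 0.33 ± 0.097 for Fgfr4, which did not pass (adjusted p = 0.122 and 0.204). For 24 h minus 3 h and 48 h minus 24 h, 0 members and 0% of genes passed by edgeR, with 3 and 4 members and 1212 and 640 genes at an unadjusted p below 0.05, and DESeq2 called 0 genes in both.

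At 24 h of 50 µM BPS, 0 of 33 members passed in edgeR, against 0.375% of all 16512 genes (0.248% higher and 0.127% lower). An unadjusted p below 0.05 was seen for 4 members and for 2048 of all genes. Among the members, the 3 smallest p were those of Fgfr2, Fgfr3 and Dusp6. Fgfr2 had 203, 213.5, 215, 224 and 229 CPM in 50 µM BPS, against 188, 185, 206, 189.7 and 180.0 CPM in DMSO. Only the lowest 50 µM library fell within the DMSO range, and the log2 fold change of 0.20 ± 0.05 did not pass (adjusted p = 0.0778). Fgfr3 had 251, 284, 272, 281 and 228 CPM in 50 µM BPS, against 236, 227, 238, 219 and 208 CPM in DMSO (0.23 ± 0.06, adjusted p = 0.0954), and again 1 of the 50 µM libraries lay within the DMSO range. DESeq2 called both genes at 24 h, as did edgeR with the replicate number as a block. In the authors' deposited table their adjusted p were 0.0154 for Fgfr2 and 0.0305 for Fgfr3. Dusp6 averaged 41.7 ± 2.65 CPM in 50 µM BPS and 46.4 ± 3.75 CPM in DMSO (-0.15 ± 0.066, adjusted p = 0.365). Of the macrophage markers C1qb was lower at this time (-0.52 ± 0.11), and summed macrophage levels were 56.6 to 68.0 CPM in 50 µM BPS and 66.8 to 95.5 CPM in DMSO.

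At 3 h of 50 µM BPS each receptor overlapped with DMSO, and the smallest p belonged to targets. Etv5 had 58.4, 52.3, 60.2, 47.1 and 51.3 CPM in 50 µM BPS, against 67.1, 63.2, 68.8, 61.2 and 59.1 CPM in DMSO. Of the 50 µM libraries 4 were below all DMSO libraries, and the log2 fold change of -0.25 ± 0.065 did not pass (unadjusted p = 0.00112, adjusted p = 0.268). Etv4 had 16.1, 16.0, 19.7, 15.8 and 16.1 CPM in 50 µM BPS, against 19.1, 17.9, 21.3, 21.2 and 20.1 CPM in DMSO (-0.25 ± 0.086, adjusted p = 0.453), again with 4 libraries below the DMSO range. Spry4 averaged 23.5 ± 3.48 CPM in 50 µM BPS and 26.8 ± 2.48 CPM in DMSO (-0.19 ± 0.095, adjusted p = 0.657). In all 0 of 33 members passed in edgeR, against 0.0538% of all 16722 genes (0.0299% higher and 0.0239% lower), and DESeq2 called 0 members. An unadjusted p below 0.05 was seen for 2 members and for 1334 of all genes. Etv5 passed without the filter on low counts and with the replicate number as a block (adjusted p from 0.00455 to 0.449 over all fits tried).

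**Figure D5:**
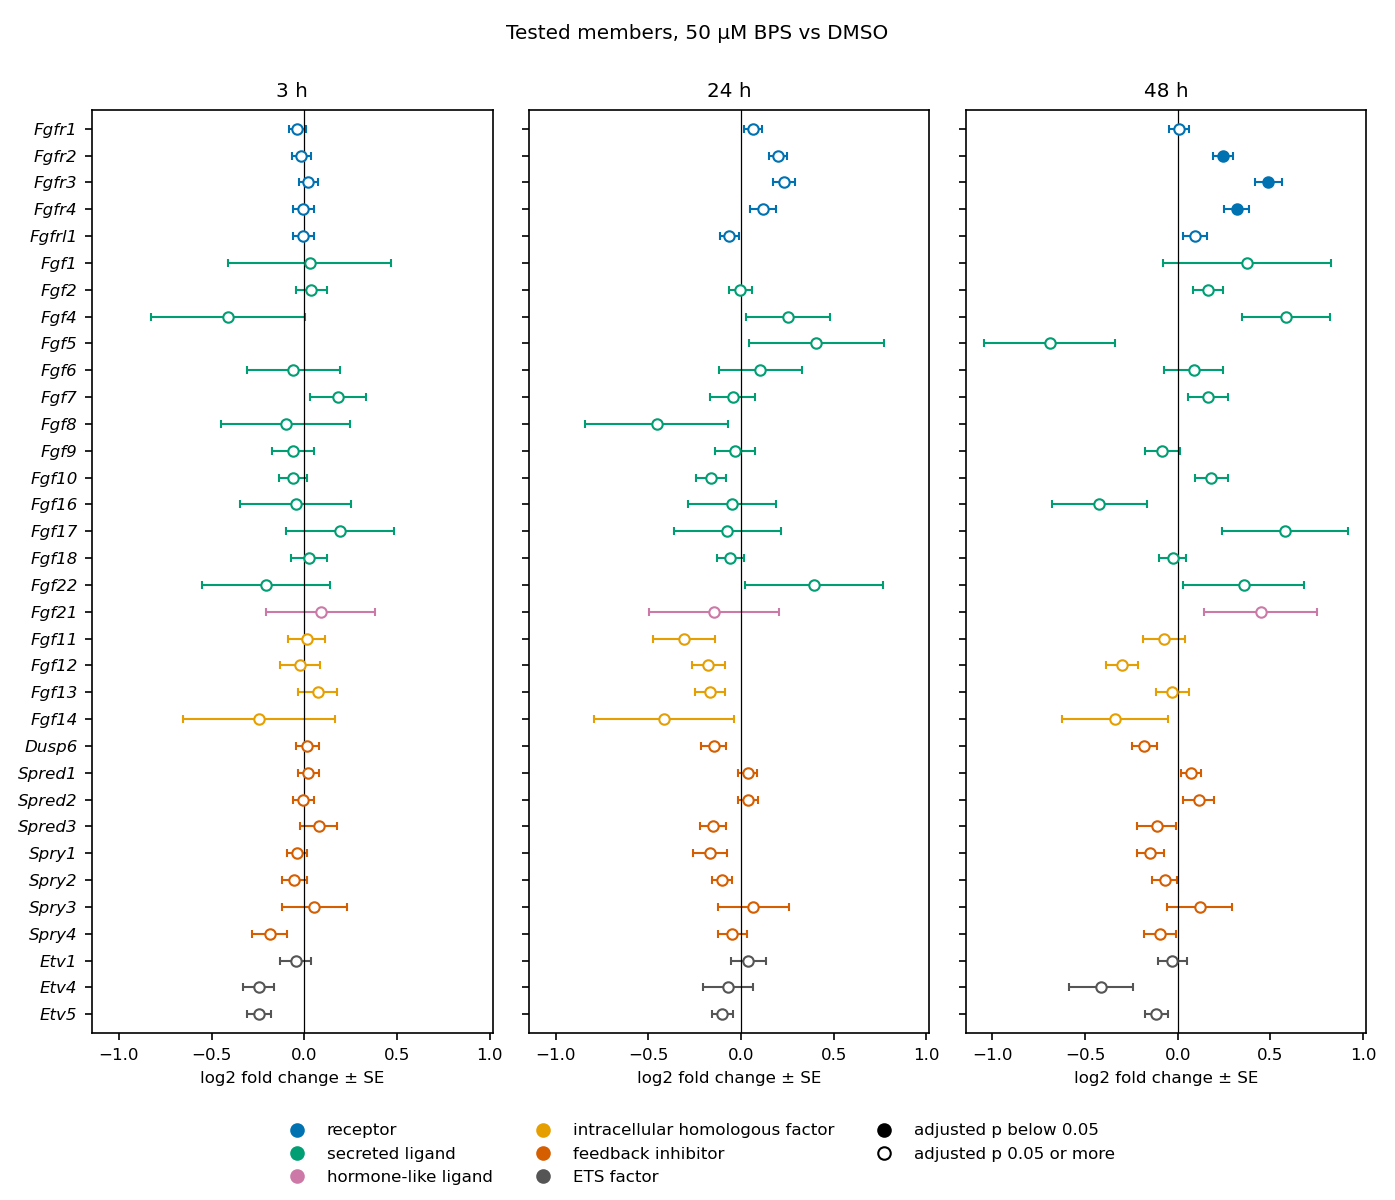
Log2 fold changes of 50 µM BPS over DMSO with their SE for the tested members at 3, 24 and 48 h, grouped by role on one horizontal scale; filled points have an adjusted p below 0.05. The filled points are Fgfr2, Fgfr3 and Fgfr4 at 48 h, at 0.24, 0.49 and 0.32, while the points of Fgfr1 lie near 0 at each time.

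At 10 µM BPS, 0 members passed at any time in edgeR, against 0% of all genes tested, and DESeq2 called 0 genes as well. Over all genes, 329, 494 and 438 had an unadjusted p below 0.05 at 3, 24 and 48 h. Unadjusted p below 0.05 were seen for 0, 1 and 2 members at 3, 24 and 48 h. At 3 h the smallest were those of Spry4 (log2 fold change -0.15 ± 0.078), Fgf16 (0.53 ± 0.30) and Etv4 (-0.16 ± 0.091). At 24 h they were those of Spry2 (-0.13 ± 0.06), Fgf4 (0.42 ± 0.22) and Spred3 (-0.11 ± 0.067). At 48 h they were those of Fgf5 (-0.85 ± 0.34), Fgfr3 (0.18 ± 0.082, unadjusted p = 0.0416, adjusted p = 1.00) and Spred1 (0.10 ± 0.057). The 95% interval of the Fgfr3 value ran from 0.0079 to 0.35 on the log2 scale, and those of Fgfr2 and Fgfr4 at 48 h were -0.029 to 0.22 and -0.07 to 0.23.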

How the data were processed

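The 9 deposited tables, 1 for each of the authors' comparisons, were joined by gene identifier. Read counts per gene and library are raw in these tables, per the file headers, and were the input of every test. The same tables hold log2 fold changes and adjusted p-values deposited by the authors, which are printed only where named as theirs. Tools listed without a role in the submitters' processing notes are STAR 2.5, HTSeq 0.6.1, CASAVA 1.8 and DESeq2 (given as version 2), with build mm10, and the annotation release is not given in the sources used here. Of 1319925 control counts found in more than 1 table, 0 differed, and genes missing from a table were set to 0 (at most 1 read elsewhere). The tables held 0 columns of other samples. Libraries of one group always differed by more than sampling noise (chi-square per degree of freedom of 4.15 or more).

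Two-sided quasi-likelihood tests were run in edgeR 4.0.16 (R 4.3.3) after filterByExpr and TMM scaling, with robust dispersion. The procedure was also tried on simulated data. Changes planted there were wider than those of Fgfr2, Fgfr3 and Fgfr4 at 50 µM and 48 h, so changes of that size were not covered. A comparison of 2 groups used only their 10 libraries, while 50 against 10 µM and differences between times came from a fit of all 45. An adjusted p below 0.05 over all genes counted as passing. The SE was taken from the fold change and its F statistic, and 95% intervals from the t distribution with the degrees of freedom of the fit. CPM used TMM factors over the 45 libraries, and levels per kilobase the deposited gene length. Alternatives were DESeq2 1.42.0, its size factors in edgeR, no filter, all 45 libraries in the fit, the replicate number as a block, and leaving out each library (genes that DESeq2 left without an adjusted p were not counted as called or lost). Intervals and floors cover counting or library spread only, since reads carry no molecular identifiers.

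Members and lists were chosen with earlier results of these data known. A panel of 19 members was set to be described in any case, with up to 8 others per comparison by smallest adjusted p, or the 3 smallest unadjusted p where none passed, and up to 3 genes of each pathway list. Overlapping genes, the GGGCGG and estrogen response motifs and Fgfr2, Fgfr4 and Egr1 values given beyond this rule were chosen after values were seen. Replicate numbers name libraries and are not said to pair cultures.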

Additional observations from a re-analysis of the deposited data

Results flagged for a closer look

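Among 171 sets of 5 libraries, formed by 19 panel genes in 9 groups, 8 held a library far from the rest by Dixon's test at 95%, and chance alone flags about 1 set in 20. In 50 µM BPS, Etv1 was high at 37.77 CPM in replicate 5 at 24 h and at 33.09 CPM in replicate 2 at 48 h. Etv4 was high at 19.7 CPM in replicate 3 at 3 h and low at 7.772 CPM in replicate 1 at 48 h, both in 50 µM BPS. Dusp6 was low at 36.21 CPM in replicate 5 of 50 µM BPS at 48 h, and Fgf18 was low at 20.18 CPM in replicate 5 of 50 µM BPS at 3 h. Spry4 was high at 26.88 CPM in replicate 3 of 10 µM BPS at 3 h, and Spry1 was low at 54.3 CPM in replicate 5 of DMSO at 48 h. None of the 8 concerned a receptor gene.

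The response of Fgfr3 to 50 µM BPS differed between 48 and 3 h in edgeR. The log2 fold change at 48 h exceeded that at 3 h by 0.47 ± 0.090 (interaction term, adjusted p = 0.0154). This call was lost when replicate 1, 3 or 4 was left out of all groups (adjusted p up to 0.239).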

How the results depend on the processing

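Counts of members that passed moved as follows. At 50 µM BPS over DMSO, the 3 members at 48 h became 1 (Fgfr3) under the replicate block and ran from 1 to 3 with a library left out, and the 0 at 24 h became 2 with DESeq2, 1 with all 45 libraries, 1 with no filter, 2 with the block and 0 to 1 with a library left out, while the 0 at 3 h became 1 with no filter and 1 with the block. DESeq2 gave 2 members in place of 1 for 50 over 10 µM at 48 h (Dusp6 added) and for the 48 h minus 3 h interaction (Fgfr2 added), each with 0 to 1 when a replicate number was left out. In DMSO culture, the 4 members of 48 over 24 h became 8 with all 45 libraries, 7 with the block and 1 to 4 with a library left out, and the counts for 24 and 48 h over 3 h, 22 and 24, ran from 20 to 23 and from 22 to 25. Under the block, adjusted p at 50 µM and 48 h was 0.0179 for Fgfr3, 0.0628 for Fgfr4 and 0.134 for Fgfr2. The labels do not say that numbers mark shared cultures. In no comparison did every same-numbered pair correlate above 0.1 or best with its own number. The numbers were therefore not taken as pairs, although this does not exclude pairing. The correlations at 50 µM over DMSO ran from -0.071 to 0.077 at 48 h, from 0.053 to 0.167 at 24 h (4 of 5 best with their own number) and from 0.087 to 0.176 at 3 h (4 of 5), and at 10 µM and 24 h from 0.082 to 0.201 (4 of 5), a hint from the data, not from the design. In the other comparisons and settings the counts stayed within 1.5 times the main one, and 0 results changed sign. The cause of these shifts was not tested.

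Counts over all genes at 50 µM over DMSO moved as well. At 48 h, 167 genes passed, with 426 by DESeq2, 477 with all 45 libraries, 258 with no filter and 70 with the block. At 24 h, 62 passed, with 266, 104, 153 higher and 90 lower, and 949, and at 3 h 9, with 59, 16, 60 and 256 under the same settings. Of 50 over 10 µM at 24 h 10 genes passed, with 34 by DESeq2, and at 3 h 1, with 2. The 48 h minus 3 h interaction gave 17 genes, with 77 by DESeq2 and 28 with the block, and 48 over 24 h of DMSO 2670, with 4063 from all 45 libraries. Low members such as Fgf8 are limited by depth.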
